A study of Mus musculus with 6 samples.

Results

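The genes described here are the DNA topoisomerases of the mouse and the enzymes that free DNA from a trapped topoisomerase: Top1, Top1mt, Top2a, Top2b, Top3a, Top3b, Tdp1 and Tdp2. They were chosen by gene symbol, with earlier results of these data known, and are 8 of the 45777 genes in the deposited expression table. All 8 had enough counts to be tested, among 18328 tested genes (those averaging 10 or more counts across the libraries).

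RNA was sequenced from hearts of BALB/c nude mice (CAnN.Cg-Foxn1nu/Crl, female, 6 weeks old before treatment). Every mouse, those of the Control group included, carried a subcutaneous tumour of MDA-MB-231, a human breast cancer cell line. The study asked whether ginsenoside Rh2, a saponin of ginseng, alters the effect of the anthracycline doxorubicin (Dox) on the heart. Each of the 6 conditions was 1 library made from the pooled hearts of 5 mice. They were Control, which received vehicle, Rh2 alone (Rh2-20 mg/kg and Rh2-30 mg/kg, written Rh2-20 and Rh2-30 below), Dox alone, and Dox with either dose of Rh2 (Rh2-20 mg/kg + Dox is written Rh2-20 + Dox, and Rh2-30 mg/kg + Dox is written Rh2-30 + Dox). Rh2 was injected daily and Dox at 2 mg/kg on alternate days to a cumulative 22 mg/kg, over 3 weeks. Nude mice lack a thymus and so most T cells, and a pool of hearts shows no spread between animals. No condition had a second library, so differences between 2 libraries have no replicate check. What can be tested is the factor that libraries share, 3 with Dox against 3 without, and p-values then measure the spread between libraries that also differ in Rh2 dose. The libraries held 86164411 to 90621002 counts.

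Topoisomerases relieve the twisting and tangling of DNA by cutting it, holding the cut end on a tyrosine of the enzyme, and sealing it again. Type I enzymes cut a single strand and type II enzymes cut both strands at once. Anthracyclines hold type II enzymes in the cut state, and tyrosyl-DNA phosphodiesterases remove the enzyme remnant from the end. Top2a is made by dividing cells, where it untangles chromosomes before they separate, whereas Top2b is also made by cells that no longer divide, including cardiomyocytes.

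The hearts carried the markers of cardiac muscle throughout, with 19564 to 26958 CPM (counts scaled to library size after TMM normalisation) summed over 7 cardiomyocyte markers. The Rh2-30 library stood apart in other tissue markers. Its 4 atrial markers summed to 1662 CPM, against 379 in Dox and 403 in Rh2-20 + Dox and 45.7, 62.0 and 75.3 in Control, Rh2-20 and Rh2-30 + Dox, its 4 fat markers to 140.0 CPM against 8.32 to 14.2, and its 3 B cell markers to 6.20 CPM against 0.656 to 1.87. Among the libraries with Dox, 5 erythroid markers summed to 8021 CPM in Dox, 4382 in Rh2-20 + Dox and 1237 in Rh2-30 + Dox, against 1925 to 2661 without Dox. The part of these markers in the differences below was not tested, and the Dox difference of each member is also given without the Rh2-30 library.

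The type II genes differ in the promoter as well as in level. Promoters of 5 of the 8 genes (Top1, Top2a, Top2b, Top3b and Tdp1) were matched in RefSeq's table for GRCm38.p6, the assembly of mm10, which gives 250 bases before and 50 after a start of transcription. The letters CCAAT, the box bound by the factor NF-Y, and TTTGAA, the core of the cell cycle element called CHR, were searched on both strands, and neither motif overlapped the other in these genes. Top2a and Top2b are shown from 250 to 11 bases before the start, as they are the pair that separated the libraries with and without Dox. Each is written along the strand of its gene, with capitals marking CCAAT or, where the box lies on the opposite strand, ATTGG. Top2a is chr11:99024200-99024439 on the minus strand and Top2b is chr14:16364956-16365195 on the plus strand.
Top2a: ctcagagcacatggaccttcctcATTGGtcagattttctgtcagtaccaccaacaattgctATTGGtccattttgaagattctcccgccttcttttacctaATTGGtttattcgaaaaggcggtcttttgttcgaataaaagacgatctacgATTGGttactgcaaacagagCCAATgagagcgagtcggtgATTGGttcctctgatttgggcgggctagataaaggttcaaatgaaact
Top2b: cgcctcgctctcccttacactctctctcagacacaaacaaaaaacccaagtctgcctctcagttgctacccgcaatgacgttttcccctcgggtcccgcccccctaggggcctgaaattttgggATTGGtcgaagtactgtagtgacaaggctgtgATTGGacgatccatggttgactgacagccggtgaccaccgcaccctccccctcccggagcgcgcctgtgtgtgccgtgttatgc

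The Top2a promoter held 6 CCAAT boxes, 5 of them on the opposite strand, the nearest at positions -58 to -54 from the start. Of all 32851 promoters of this length, 37.4% held the box, 11.7% held at least 2, and 26 (0.0791%) held 6 or more. It also held TTTGAA at positions -179 and -23 from the start (its first letter along the gene), and 17.9% of all promoters held this motif at least once and 2.31% at least 2 times. The Top2b promoter held 2 CCAAT boxes, beginning at positions -126 and -94, and no TTTGAA. Top3b had 1 CCAAT box, Tdp1 had 1 TTTGAA, and Top1 had neither in this window. Of 18 proliferation genes, 15 had a promoter in the table, of which 13 held CCAAT in at least 1 promoter and 8 held it at least 2 times in 1 promoter, beside 41.1% and 13.3% of all genes counted the same way. Such matches describe letters and are not sites of binding.

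**Figure D1:**
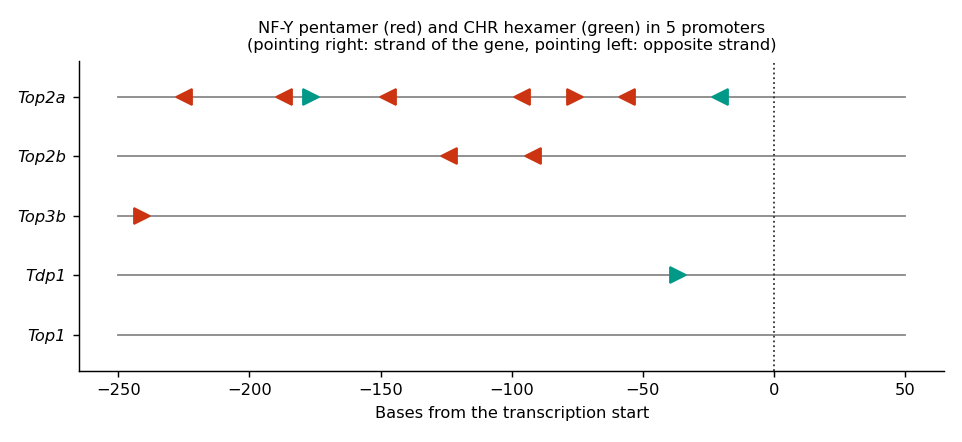
Positions of the NF-Y pentamer (red) and the CHR hexamer (green) in the promoters of 5 genes, in bases from the start of transcription, with triangles pointing right for the strand of the gene and left for the opposite strand. Top2a carries 6 red and 2 green marks, Top2b 2 red marks, and Top1 none.

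Compared per length of transcript, in the authors' FPKM (fragments scaled to transcript length and library size), Top2b was the highest of the 8 genes in every library and ranged from 35.8 to 46.5. Top1 followed at 22.4 to 30.2, Top3b at 16.5 to 20.5, Tdp2 at 10.5 to 11.8 and Tdp1 at 7.80 to 8.30. The ranges of these 5 genes did not overlap, so their order held in each library. The lowest 3 were Top1mt at 2.44 to 3.23, Top3a at 1.92 to 2.47 and Top2a at 0.190 to 4.87. The ranges of Top1mt and Top3a overlapped slightly, although Top1mt was above Top3a in each library, and the range of Top2a spanned both. Between its highest and lowest library, Top2a differed 25.7-fold in FPKM, whereas the other 7 genes differed 1.06-fold (Tdp1) to 1.35-fold (Top1).

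**Figure D2:**
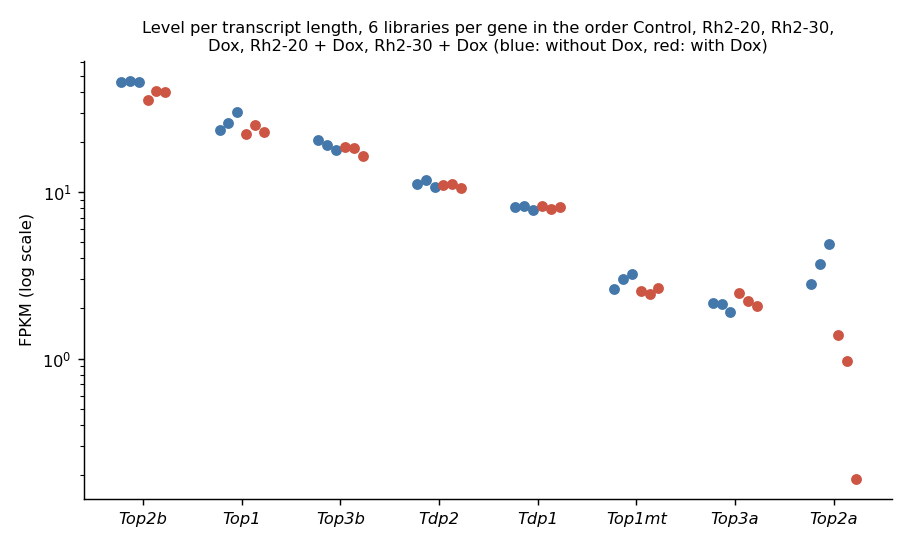
FPKM on a log scale for the 8 genes, with a point for each of the 6 libraries (blue without Dox, red with Dox) in the order Control, Rh2-20, Rh2-30, Dox, Rh2-20 + Dox, Rh2-30 + Dox. Top2b lies at the top in every library, and only Top2a spreads widely, from 4.87 in Rh2-30 down to 0.190 in Rh2-30 + Dox.

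Top2a was lower in every library with Dox than in every library without it. Its deposited counts were 1646 in Control, 2238 in Rh2-20 and 2942 in Rh2-30, against 794 in Dox, 596 in Rh2-20 + Dox and 117 in Rh2-30 + Dox. The groups did not overlap, and as ratios the libraries with Dox differed more among themselves than did those without. After normalisation the means were 5.77 ± 4.10 CPM with Dox and 25.2 ± 5.64 CPM without (SD, n = 3 libraries each). The log2 fold change was -2.13 (SE 0.605, 95% interval -3.56 to -0.70), or 4.37-fold lower. It missed the threshold over all genes, with an adjusted p of 0.344 (unadjusted p = 0.0096, quasi-likelihood test of edgeR fitted over all 6 libraries, with Benjamini-Hochberg adjustment). By size it was the 174th most negative of the 18328 fold changes. The log2 fold change was -1.95 without the Rh2-30 library (unadjusted p = 0.0225, adjusted p = 0.458, edgeR) and -1.66 without Rh2-30 + Dox (unadjusted p = 0.000503, adjusted p = 0.123, edgeR). As the RNA came from tissue and not from separated cells, fewer dividing cells and less Top2a RNA per cell cannot be told apart.

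Top2b was lower with Dox by a much smaller amount. It had 28805 counts in Control, 30262 in Rh2-20 and 29723 in Rh2-30, against 22513 in Dox, 26574 in Rh2-20 + Dox and 26384 in Rh2-30 + Dox. Each library with Dox again lay below each library without. Means were 287 ± 18 CPM with Dox and 332 ± 16.6 CPM without (SD, n = 3 each), a log2 fold change of -0.21 (SE 0.0906, 95% interval -0.42 to 0.01), a difference of -13.4% (adjusted p = 0.503, unadjusted p = 0.0547, edgeR). Without the Rh2-30 library the log2 fold change was -0.24.

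Across the 8 genes, 0 passed an adjusted p of 0.05 for Dox in edgeR, where 5 of the tested genes (0.0273%) did, and 1 (Top2a) had an unadjusted p under 0.05, as had 1852 genes. DESeq2's Wald test called 425 genes, and none of the 8. Both members whose libraries did not overlap, Top2a and Top2b, were lower with Dox. Of all tested genes 9.16% had each library with Dox below each without, so 2 of 8 is to be read beside that share. In the other 6 genes the groups overlapped. Without the Rh2-30 library, a setting chosen after seeing its markers, 4 of the 8 genes (Top2a, Top2b, Top3b and Tdp2) had each library with Dox below both without, beside 14.3% of all tested genes.

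**Figure D3:**
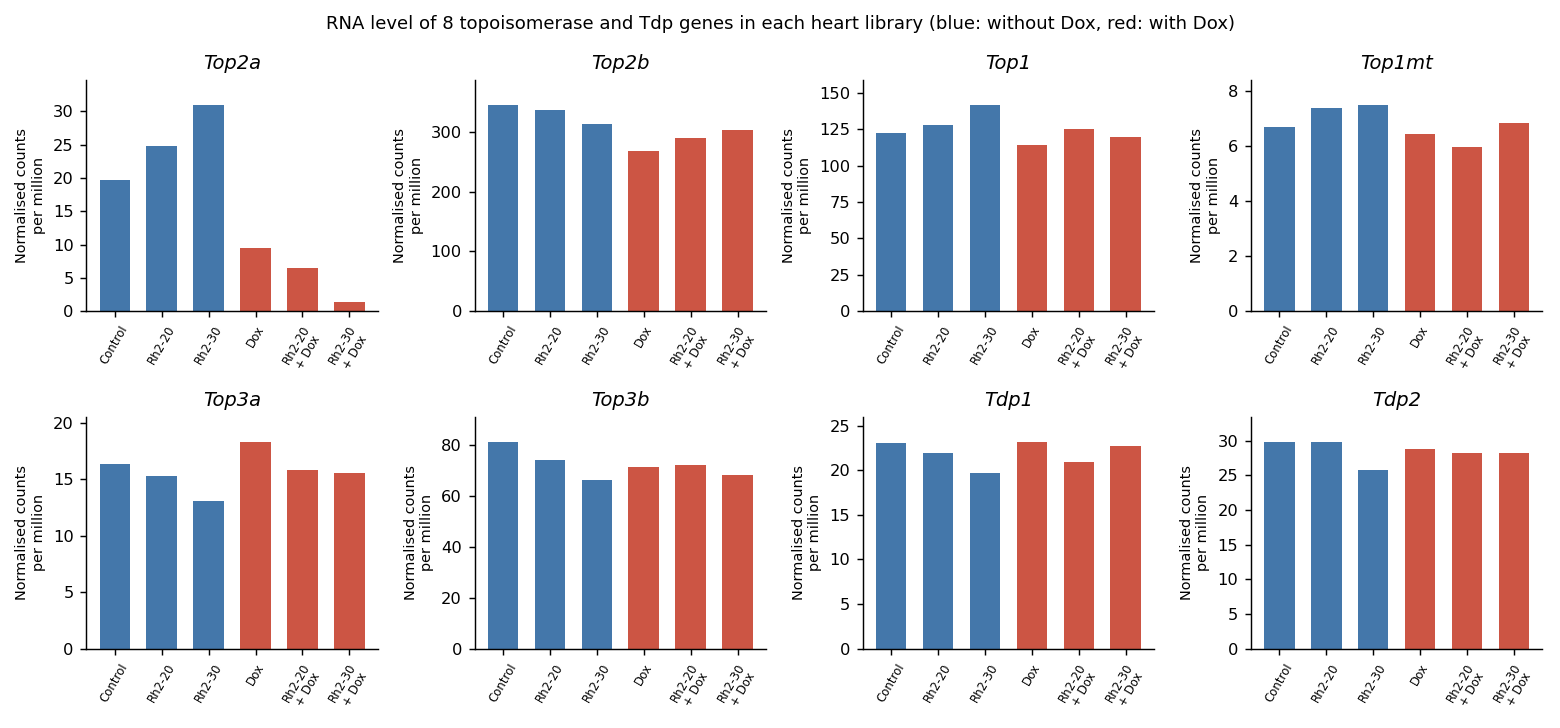
Normalised counts (CPM) of each gene in the 6 libraries (1 bar per library, bars start at 0, blue without Dox and red with Dox, no error bars because each condition is 1 library). The red bars of Top2a lie at 1.35 to 9.45 CPM and its blue bars at 19.8 to 31.0 CPM; in the other genes the bars differ little, and only those of Top2b also separate by colour.

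Top1, which relaxes nuclear DNA ahead of polymerases, had 10204 counts in Control, 11490 in Rh2-20, 13451 in Rh2-30, 9606 in Dox, 11477 in Rh2-20 + Dox and 10415 in Rh2-30 + Dox. Its highest library was Rh2-30 and its lowest Dox, with groups that overlapped. The log2 fold change with Dox was -0.13 (SE 0.0897, interval -0.34 to 0.09, adjusted p = 0.684, edgeR), and -0.05 without the Rh2-30 library. Top1mt, the nuclear-encoded enzyme that relaxes mitochondrial DNA, had 559, 665 and 712 counts in Control, Rh2-20 and Rh2-30, and 540, 546 and 594 in Dox, Rh2-20 + Dox and Rh2-30 + Dox. Its log2 fold change was -0.17 (SE 0.116, interval -0.44 to 0.11, adjusted p = 0.673, edgeR), and -0.13 without the Rh2-30 library. The groups overlapped by Control and Rh2-30 + Dox, at 6.71 and 6.84 CPM. In FPKM, Top1 exceeded Top1mt 8.57-fold to 10.4-fold.

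Top3a works with the helicase Blm and with Rmi1 to resolve joined DNA molecules. It had 1362 counts in Control, 1380 in Rh2-20 and 1239 in Rh2-30, and 1539 in Dox, 1454 in Rh2-20 + Dox and 1353 in Rh2-30 + Dox. The log2 fold change was 0.15 (SE 0.122, interval -0.14 to 0.44, adjusted p = 0.721, edgeR), and it was 0.08 without Rh2-30 or without Dox. The groups overlapped, since Control at 16.3 CPM lay above both Rh2 + Dox libraries at 15.9 and 15.6 CPM. Top3b, which acts on RNA and DNA together with Tdrd3, had 6759, 6660 and 6263 counts in Control, Rh2-20 and Rh2-30, and 5991, 6616 and 5908 in Dox, Rh2-20 + Dox and Rh2-30 + Dox. Its log2 fold change was -0.06 (SE 0.0967, interval -0.29 to 0.16, adjusted p = 0.865, edgeR), or -0.13 without Rh2-30. Top3b was 7.54-fold to 9.48-fold above Top3a in FPKM.

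The enzymes of adduct repair varied least. Tdp1, which cleaves the bond between DNA and a trapped Top1, had 1925 counts in Control, 1972 in Rh2-20, 1868 in Rh2-30, 1949 in Dox, 1923 in Rh2-20 + Dox and 1976 in Rh2-30 + Dox. Tdp2, which cleaves the bond to a trapped type II enzyme, had 2486, 2683 and 2451 counts in Control, Rh2-20 and Rh2-30, and 2422, 2588 and 2460 in Dox, Rh2-20 + Dox and Rh2-30 + Dox. For both genes the lowest CPM was in Rh2-30, at 19.7 CPM for Tdp1 and 25.8 CPM for Tdp2. In FPKM, Tdp1 was again lowest in Rh2-30, but Tdp2 was lowest in Rh2-30 + Dox (10.5, against 10.7 in Rh2-30). With Dox the log2 fold change was 0.05 for Tdp1 (SE 0.0974, adjusted p = 0.905, edgeR; 0.10 without Control and -0.00095 without Rh2-30), and its interval reached from a difference of -11.8% to 21.3%. For Tdp2 it was -0.00 (SE 0.0901, adjusted p = 0.998, edgeR; -0.06 without Rh2-30), with an interval from -13.8% to 15.7%. The FPKM ratio of Tdp2 to Tdp1 stayed between 1.30 and 1.42 over the 6 libraries.

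**Figure D4:**
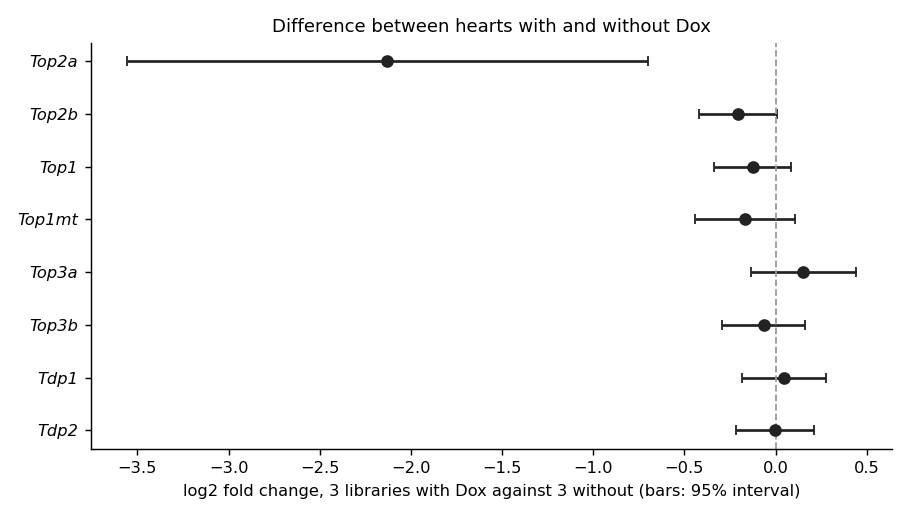
Log2 fold change of each gene between the 3 libraries with Dox and the 3 without, as a point with its 95% interval from edgeR's quasi-likelihood fit. The interval of Top2a runs from -3.56 to -0.70, and the intervals of the other 7 genes all include 0 and lie between -0.44 and 0.44.

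Single libraries were then set against Control, which is the same library in each comparison. Called here means past 2-fold. Intervals combine counting error with the common dispersion of the 6 libraries, a robust deviance estimate that alone gives 0.675 to either side. Top2a had a log2 ratio to Control of -1.06 in Dox (interval -1.75 to -0.38, 2.09-fold lower), -1.60 in Rh2-20 + Dox (-2.29 to -0.91, 3.04-fold lower) and -3.87 in Rh2-30 + Dox (-4.60 to -3.14, 14.6-fold lower). It was 1 of the 8 genes past 2-fold in each of these, and the other 7 were not, beside 9.01%, 8.76% and 10.9% of all tested genes. Without Dox its log2 ratio was 0.33 in Rh2-20 (-0.35 to 1.01) and 0.65 in Rh2-30 (-0.03 to 1.33), and 0 of the 8 genes were past 2-fold, beside 6.11% and 10.1% of all tested genes. With the authors' FPKM plus 1, the log2 ratio of Top2a to Control was -0.68 in Dox and -0.95 in Rh2-20 + Dox. With FPKM plus 0.1 it was -0.98 in Dox, so these were not past 2-fold. A constant added to low values draws their log2 ratio towards 0 by construction. Without a constant, the FPKM of Top2a was 2.82 in Control, 1.38 in Dox and 0.972 in Rh2-20 + Dox. The default of edgeR, a likelihood estimate of the dispersion added here after seeing the data, alone gives 1.18 to either side. With it, the interval for Top2a in Dox became -2.25 to 0.12 and included 0.

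Against the Dox library, Top2a had a log2 ratio of -0.54 in Rh2-20 + Dox (interval -1.23 to 0.15) and of -2.81 in Rh2-30 + Dox (-3.54 to -2.08, 6.99-fold lower). The first comparison had 0 of the 8 genes past 2-fold and the second had 1, Top2a, beside 6.49% and 10.1% of all tested genes. Within an Rh2 dose, a comparison chosen after seeing the data, the log2 ratio with Dox to without was -1.93 at 20 mg/kg (-2.62 to -1.25, 3.82-fold lower) and -4.52 at 30 mg/kg (-5.25 to -3.80, 23.0-fold lower). Again only Top2a was past 2-fold, beside 6.96% and 14.5% of all tested genes. The largest of these ratios joins the lowest library, Rh2-30 + Dox, to the highest, Rh2-30, which is the one with raised atrial, fat and B cell markers.

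Top2b stayed within 2-fold in each of these comparisons. Its log2 ratio to Control was -0.37 in Dox, -0.25 in Rh2-20 + Dox and -0.19 in Rh2-30 + Dox, and without Dox -0.04 in Rh2-20 and -0.14 in Rh2-30. With the dispersion added, all 5 intervals included 0. Counting error alone is small for this gene, and the interval from it in Dox was -0.39 to -0.34.

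As Top2a differed far more than Top2b, the make-up of the type II pair differed between libraries. In FPKM, Top2b exceeded Top2a 16.1-fold in Control, 12.5-fold in Rh2-20 and 9.37-fold in Rh2-30. With Dox it was 25.9-fold in Dox, 41.3-fold in Rh2-20 + Dox and 209-fold in Rh2-30 + Dox. Top2a thus made up 5.84% to 9.65% of type II FPKM without Dox and 0.475% to 3.72% with Dox.

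Rh2 gave no difference past the threshold in the 4 libraries with Rh2 against the 2 without, with Dox as a term. In that edgeR fit 0 of the 8 genes and 0 of all genes (0%) passed an adjusted p of 0.05, while 1602 genes and 0 of the 8 had an unadjusted p under 0.05. DESeq2's Wald test called 242 genes, and none of the 8. In CPM, Top3a and Tdp1 had each library with Rh2 below both without, as had 9.08% of all tested genes. In FPKM this was lost for both genes. Top3a was 2.21 in Rh2-20 + Dox, above Control at 2.17. Tdp1 was 8.26 in Rh2-20 and 8.11 in Rh2-30 + Dox, above Control at 8.09. Top3a stood at 15.3, 13.1, 15.9 and 15.6 CPM in Rh2-20, Rh2-30, Rh2-20 + Dox and Rh2-30 + Dox, and at 16.3 and 18.3 CPM in Control and Dox. Its log2 fold change was -0.21 (SE 0.0990, interval -0.46 to 0.03, unadjusted p = 0.0780, adjusted p = 0.578, edgeR). Tdp1 stood at 21.9, 19.7, 21.0 and 22.7 CPM with Rh2 and at 23.1 and 23.2 CPM in Control and Dox, a log2 fold change of -0.12 (adjusted p = 0.696, edgeR). Without the Rh2-30 library these were -0.16 for Top3a and -0.07 for Tdp1.

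Top2a and Top2b took opposite orders with Rh2 in the presence and absence of Dox. Top2a stood at 19.8, 24.9 and 31.0 CPM at Rh2 doses of 0, 20 and 30 mg/kg without Dox, and at 9.45, 6.5 and 1.35 CPM with Dox. Top2b stood at 346, 336 and 313 CPM without Dox and at 268, 290 and 304 CPM with Dox. So in CPM the Rh2 libraries were above the library without Rh2 for Top2a, and below it for Top2b, where Dox was absent, and the reverse where it was present. For Top2b this was lost in FPKM, where both Rh2 libraries without Dox (46.5 and 45.6) lay just above Control (45.5). The interaction of Rh2 with Dox, tested after this was seen, was -1.77 for Top2a on the log2 scale (SE 1.21, interval -4.93 to 1.40, unadjusted p = 0.208, adjusted p = 0.988, edgeR) and 0.24 for Top2b (SE 0.192, interval -0.26 to 0.74, unadjusted p = 0.273, adjusted p = 0.988, edgeR). Of the 8 genes 0 passed, as did 0% of all tested genes, and 497 genes had an unadjusted p under 0.05.

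The genes closest to Top2a over the 6 libraries, by Pearson's correlation of log2 CPM, were Dtl (r = 0.999), Mki67 (0.997), Depdc1a (0.997), Plekha4 (0.997) and Haao (0.997). Mki67, the gene of the proliferation marker Ki-67, had 8783, 10708 and 13001 counts in Control, Rh2-20 and Rh2-30, and 3822, 2664 and 677 in Dox, Rh2-20 + Dox and Rh2-30 + Dox. Dtl, a substrate receptor of an S phase ubiquitin ligase, had 252, 359 and 425 counts, and 103, 81 and 15, in the same order. Their libraries fell in the same order as those of Top2a. Haao reached at most 25 counts, so its value rests on few reads. Closest to Top2b were Yeats4 (0.992), Gm14138 (0.992), Gm33595 (0.991), Tipin (0.989) and Gpat3 (0.987), of which Gm14138 and Gm33595 had at most 37 counts. These correlations describe 6 libraries of similar depth that differ in their tissue markers, among 18328 genes searched. The part of those markers in the correlations was not tested.

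Most listed genes of cell division had lower values with Dox, as Top2a had. Of 18 proliferation genes 16 had each library with Dox below each without, all but Ube2c and Pcna, beside 9.16% of all tested genes, and 16 of 18 without the Rh2-30 library, beside 14.3%. Their median log2 fold change was -1.69, against -0.01 over all tested genes. In edgeR 15 had an unadjusted p under 0.05, beside 1852 of the 18328 tested genes, and 0 passed the adjusted threshold. The largest values were -2.78 for Bub1, a spindle checkpoint kinase, -2.27 for Cdk1, the kinase that starts mitosis, -2.24 for Hmmr, a spindle protein, and -2.19 for Ccnb1, the cyclin partner of Cdk1. Against Control the median of the list was 0.17 in Rh2-20, 0.49 in Rh2-30, -0.99 in Dox, -1.24 in Rh2-20 + Dox and -2.19 in Rh2-30 + Dox. Top2a lay at 0.33, 0.65, -1.06, -1.60 and -3.87 in the same libraries, and Top2b at -0.04, -0.14, -0.37, -0.25 and -0.19.

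**Figure D5:**
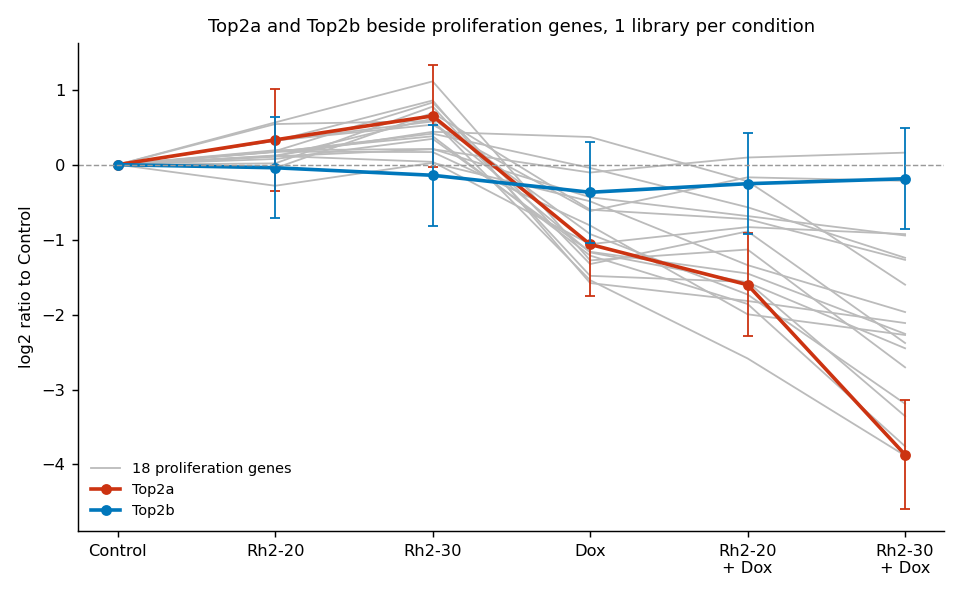
Log2 ratio to Control of Top2a (red), Top2b (blue) and 18 proliferation genes (grey) in each library, with bars for the 95% interval that includes the common dispersion; all points share the Control library. Top2a runs from 0.65 in Rh2-30 to -3.87 in Rh2-30 + Dox, at the lower edge of the grey lines there, while Top2b stays between -0.37 and -0.04.

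Some markers of other cells also differed between these libraries. The 5 macrophage markers summed to 342, 434 and 510 CPM in Control, Rh2-20 and Rh2-30, and to 300, 405 and 234 CPM in Dox, Rh2-20 + Dox and Rh2-30 + Dox, so the groups overlapped and the highest and lowest libraries were those of Top2a. The sum of 5 fibroblast markers was likewise highest in Rh2-30 (1352 CPM) and lowest in Rh2-30 + Dox (771 CPM). Col1a1, Col1a2 and Tcf21 had these extremes, whereas Pdgfra and Dcn were highest in Rh2-20 + Dox and lowest in Control. The 5 endothelial markers ranged from 1322 to 1514 CPM. The 3 megakaryocyte markers summed to 93.1 CPM in Dox and 135 CPM in Rh2-20 + Dox against 12.8 to 29.7 CPM in the other 4 libraries, and 4 skeletal muscle markers to 1.51 to 2.84 CPM. The 3 T cell markers summed to 0.401 to 2.62 CPM, and of these Cd3d was listed at 0 in every library and Cd8a had counts in Control alone, 9. Cd3e separated the groups, with 80, 55 and 38 counts in Control, Rh2-20 and Rh2-30 and 220, 97 and 189 in Dox, Rh2-20 + Dox and Rh2-30 + Dox, a log2 fold change of 1.57 (adjusted p = 0.344, edgeR). The part of these cells in the level of Top2a was not tested.

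Condensin, the ring that compacts chromosomes together with Top2a, was split among its subunits. Of 8 subunit genes 6 had each library with Dox below each without, beside 9.16% of all tested genes. In edgeR 5 had an unadjusted p under 0.05, beside 1852 of the 18328 tested genes, and none passed the adjusted threshold. The median log2 fold change was -0.29. Ncapg had the largest, -2.54 (435, 632 and 714 counts in Control, Rh2-20 and Rh2-30; 147, 115 and 35 in Dox, Rh2-20 + Dox and Rh2-30 + Dox). Ncapg2 followed at -0.85, Ncaph at -0.54 and Smc2 at -0.35. The cohesin and Ctcf genes that share chromatin sites with Top2b had a median of -0.01 over 6 genes, and 1 of them, Smc1a at -0.23, had groups that did not overlap, beside 9.16% lower and 7.85% higher of all tested genes. The others among its leading values were Rad21 at -0.09, Stag1 at 0.03 and Stag2 at -0.02.

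Partners of the remaining members showed smaller values. Of 5 genes that work with Top3a or Top3b, Rmi2 was too low to test, with 0 to 17 counts, and the other 4 had overlapping groups, from -0.13 for Tdrd3 and -0.10 for Blm to -0.07 for Fmr1 and -0.04 for Rmi1. Of 19 genes that process covalent adducts and the breaks they leave, 2 had an unadjusted p under 0.05 in edgeR. This is to be read beside 1852 of the 18328 tested genes, and 0 of the 19 passed the adjusted threshold. In 3 (Rnf4, Parp1 and Rbbp8) each library with Dox was below each without, beside 9.16% of all tested genes, and the median of the list was 0.00. The largest log2 fold changes were 0.29 for the SUMO ligase Pias4, -0.28 for the end resection factor Rbbp8, -0.25 for Rad50 and -0.24 for the break sensor Parp1. Of 10 genes for the upkeep of mitochondrial DNA, where Top1mt and Top3a act, 3 (Polg, Polg2 and Mgme1) had each library with Dox above each without, as had 7.85% of all tested genes, and 1 (Primpol) below, as had 9.16%. The accessory polymerase subunit Polg2 had a log2 fold change of 0.59, Primpol one of -0.46, the catalytic subunit Polg one of 0.28 and the RNA polymerase Polrmt one of 0.24. The median was 0.13. In edgeR 3 of the 10 had an unadjusted p under 0.05, beside 1852 of the 18328 tested genes, and 0 passed the adjusted threshold.

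On mm10, by the RefSeq annotation of GRCm38.p6, the genes lie at chromosome 2, 160645897 to 160722764 (Top1), chromosome 15, 75657033 to 75678800 (Top1mt), chromosome 11, 98992947 to 99024199 (Top2a), chromosome 14, 16365206 to 16430787 (Top2b), chromosome 11, 60738209 to 60777365 (Top3a), chromosome 16, 16870722 to 16892986 (Top3b), chromosome 12, 99884515 to 99955223 (Tdp1) and chromosome 13, 24831659 to 24842153 (Tdp2). Top1 overlaps the long noncoding RNA gene Gm52567, which had 0 to 7 counts, and Top2a holds the small nucleolar RNA gene LOC115487886, which was listed at 0 in every library. Without a stated strand setting, reads in these overlaps cannot be assigned to either gene.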

How the data were processed

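The authors trimmed the reads with Trimmomatic, aligned them to mm10 with HISAT2 2.1.0 and quantified genes with StringTie 2.1.3b on annotation from the UCSC table browser. The deposited counts were whole numbers per gene without normalisation. The authors' FPKM values were scaled by transcript length and library, and served for levels between genes and as alternatives. The deposited TPM values were not used. The strand setting is not given in the sources used here.

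Genes averaging 10 or more counts (18328) entered edgeR 4.0.16 in R 4.3.3, with TMM normalisation, the quasi-likelihood test (two-sided) and Benjamini-Hochberg adjustment over all of them. Alternatives used limma 3.58.1 and DESeq2 1.42.0. Python 3.11.15 with matplotlib 3.10.9 drew the figures. Ratios between 2 libraries used a prior count of 0.5 and exact conditional binomial intervals at 95%. They also used edgeR's common dispersion (robust deviance estimate) of the 6 libraries taken as 1 group. Depth was 86164411 to 90621002 counts per library, so counting error was small beside the spread between libraries. The steps were tested on simulated data in which every gene had the same dispersion. The check of the intervals used that known dispersion, so it could not show how they hold where the dispersion is larger or estimated.

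All 8 members were named, with the 5 genes most correlated with Top2a and with Top2b, and of each related list up to 4 genes of the largest fold change with Dox. Names given for a count of 5 or fewer, and the other marker genes named, were added after their values were seen. A result for 1 gene of the lists is left out. Members and lists were chosen with earlier results of these data known. The alternatives were DESeq2's size factors and Wald test, no filter on low counts, FPKM plus 1 or 0.1, a prior count of 2, a fold change of 1.5, Rh2 dose as a block and each library left out. The interaction, the ratios within an Rh2 dose, the counts without Rh2-30 and the likelihood dispersion were added after seeing the data.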

Additional observations from a re-analysis of the deposited data

Results flagged for a closer look

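For Top2a, the Rh2 libraries lay in opposite directions without and with Dox: both Rh2 libraries lay above Control, and both Rh2 + Dox libraries lay below Dox. With the dispersion added, the intervals of these ratios included 0 in Rh2-20, Rh2-30 and Rh2-20 + Dox, but not in Rh2-30 + Dox. The interaction was -1.77 on the log2 scale, and the test of the difference did not pass (unadjusted p = 0.208, adjusted p = 0.988, edgeR). For Top2b the directions were the reverse, both Rh2 libraries below Control and both Rh2 + Dox libraries above Dox, with an interaction of 0.24 (unadjusted p = 0.273, adjusted p = 0.988, edgeR). In FPKM the reversal for Top2b was lost, as both Rh2 libraries without Dox lay above Control. Each direction rests on 2 libraries against 1, and without Dox these include Rh2-30, the library with raised atrial, fat and B cell markers.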

How the results depend on the processing

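The 5 genes called for Dox became 425 with DESeq2's Wald test, 0 with FPKM plus 1 in limma, 0 with Rh2 dose as a block (1598 at an unadjusted p under 0.05) and 0 to 14 with a library left out, 14 without Rh2-30 + Dox, 3 without Rh2-30 and 0 without any of the other 4. The 0 genes called for Rh2 became 242 with DESeq2's Wald test. The cause was not tested. Genes past 2-fold against Control without a filter, then past 1.5-fold, then with FPKM plus 1, numbered 4574, 2480 and 53 in Rh2-20, 5820, 3987 and 353 in Rh2-30, 5207, 3355 and 183 in Rh2-20 + Dox, 5559, 4154 and 194 in Rh2-30 + Dox, and 5168, 3576 and 196 in Dox. The 1.5-fold count is higher by construction, and adding 1 to FPKM draws log2 ratios of low values towards 0 by construction. What else lay behind the other counts was not tested.

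No member passed an adjusted p of 0.05 in any fit. Top2a was lower with Dox in every fit, from -2.68 without Dox to -1.66 without Rh2-30 + Dox among fits that left out a library, -2.41 with the Rh2 dose block and -1.41 with FPKM plus 1, at adjusted p of 0.109 to 0.570 over 11 fits by edgeR, DESeq2 or limma. Top2b stayed between -0.25 and -0.16, and with a library left out Top1 ranged from -0.17 to -0.05 (without Rh2-30) and Top3a from 0.08 (without Dox) to 0.22. Values near 0 changed sign. For Dox, Tdp2 was 0.0065 with DESeq2's size factors, 0.0066 with its Wald test, 0.0011 with the Rh2 dose block and -0.056 to 0.041 with a library left out; Top3b ranged from -0.13 to 0.0099 and Tdp1 from -0.00095 to 0.10. For Rh2, Top1mt ranged from -0.0065 to 0.15, Top2a from -1.27 (without Control) to 0.50 (without Dox), and Top2b from -0.090 to 0.15. FPKM plus 1 moved 31 of the 72 ratios between 2 libraries beyond counting error, FPKM plus 0.1 moved 28, DESeq2's size factors 1 and a prior count of 2 none. Against Control, Top2a was -0.68, -0.95 and -1.68 with FPKM plus 1 in Dox, Rh2-20 + Dox and Rh2-30 + Dox. With FPKM plus 0.1 it was -0.98, -1.45 and -3.33 in the same order. Dox thus lost its 2-fold call under both and Rh2-20 + Dox under the first. The added constant draws ratios of low values together by construction. Top2b turned from -0.04 to 0.03 in Rh2-20 and from -0.14 to 0.0036 in Rh2-30 with FPKM plus 1. The labels give no replicate numbers, so the libraries could be paired by Rh2 dose alone, and the fit with that dose as a block is the paired one.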
